A study of Mus musculus with 6 samples.

Results

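The 10 mouse genes described here encode the MYC paralogs (Myc, Mycn and Mycl), their obligate partner Max, the MAX-binding repressors (Mxd1, Mxd3, Mxd4, Mxi1 and Mnt) and Mlx, a MAX-like factor. They were listed by gene name, with earlier results of these data known, and are 10 of the 51912 gene IDs in the deposited table. Their mRNA was measured by bulk RNA sequencing in mouse bladder tumor organoids, small 3-dimensional cultures grown from tumor cells. The labels give C57BL/6 as the strain, 3 libraries treated with SRT1720, a compound known as a SIRT1 activator (SIRT1 is a protein deacetylase), and 3 libraries treated with vehicle. No dose, time or mouse age is given in the sources used here, and the labels do not say whether replicates are separate cultures or mice. The p-values therefore cover the spread among these libraries only, and what that spread represents is not known.

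MYC proteins bind DNA as dimers with MAX, mostly at the sequence CACGTG, called the E-box, and activate genes of ribosome production, metabolism and cell division. The MXD proteins, MXI1 and MNT compete for MAX, occupy the same sites and recruit the SIN3 corepressor with its histone deacetylases, so the output depends on the balance between activators and repressors. MLX pairs with some of the MXD proteins and with the glucose-sensing factors MLXIP and MLXIPL. MYC is often overexpressed in bladder cancer, and MXI1 is known as a target of the hypoxia-inducible factors, which the series title names together with SIRT1.

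Of the 7 members tested, the groups were separate in 2, both repressors. Over all genes tested, 7.75% were lower and 12.1% higher without overlap. Mnt and Mxi1 were lower in every SRT1720 library than in every Vehicle library, at 2.44 ± 0.431 against 4.27 ± 0.764 TPM and at 3.90 ± 0.0454 against 5.54 ± 0.694 TPM (mean ± SD, n = 3 per group). Myc overlapped between the groups and ranged from 4.04 to 23.4 TPM over the libraries, and Max ranged from 3.04 to 3.88 TPM. Neither Mnt nor Mxi1 passed limma's test after Benjamini-Hochberg adjustment over all genes (adjusted p = 0.306 and 0.355). By that test 0 of 9287 genes passed (0% of genes tested), against 1153 at an unadjusted p under 0.05, 730 higher and 423 lower. The share higher among those was 63.3%, and 51.5% with median-of-ratios scaling.

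The values carry the unit TPM from the name of the deposited table, and were compared as log2(TPM + 1), which understates changes of low genes. The reads recovered from the steps of the TPM values came to between 18246204 and 22835665 per library. The libraries differed strongly within groups. Among SRT1720 1, 2 and 3, the basal keratin Krt5 measured 16.4, 616 and 1120 TPM, and among Vehicle 1, 2 and 3 it measured 425, 9.61 and 741 TPM. All 10 basal urothelial markers and 6 of 12 luminal ones reached a mean of 1 TPM, so markers of the labelled tissue's epithelium were present. The other luminal markers stayed below that mean, and 1 of them, Upk3a, was listed at 0. The summed fibroblast list was at 0.142 to 17.1 TPM with SRT1720 and 0.872 to 21.2 TPM with vehicle, with 1 of 10 genes, Vim, at a mean of 1 TPM. The smooth muscle list lay at 0.0781 to 0.3002 against 0.163 to 4.34 TPM, with 0 of 6 genes at 1 TPM, and the endothelial list at 0.0195 to 0.0376 against 0.0206 to 0.0258 TPM, with 0 of 7. In bulk samples, fewer cells of a type and less RNA per cell cannot be told apart.

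**Figure D1:**
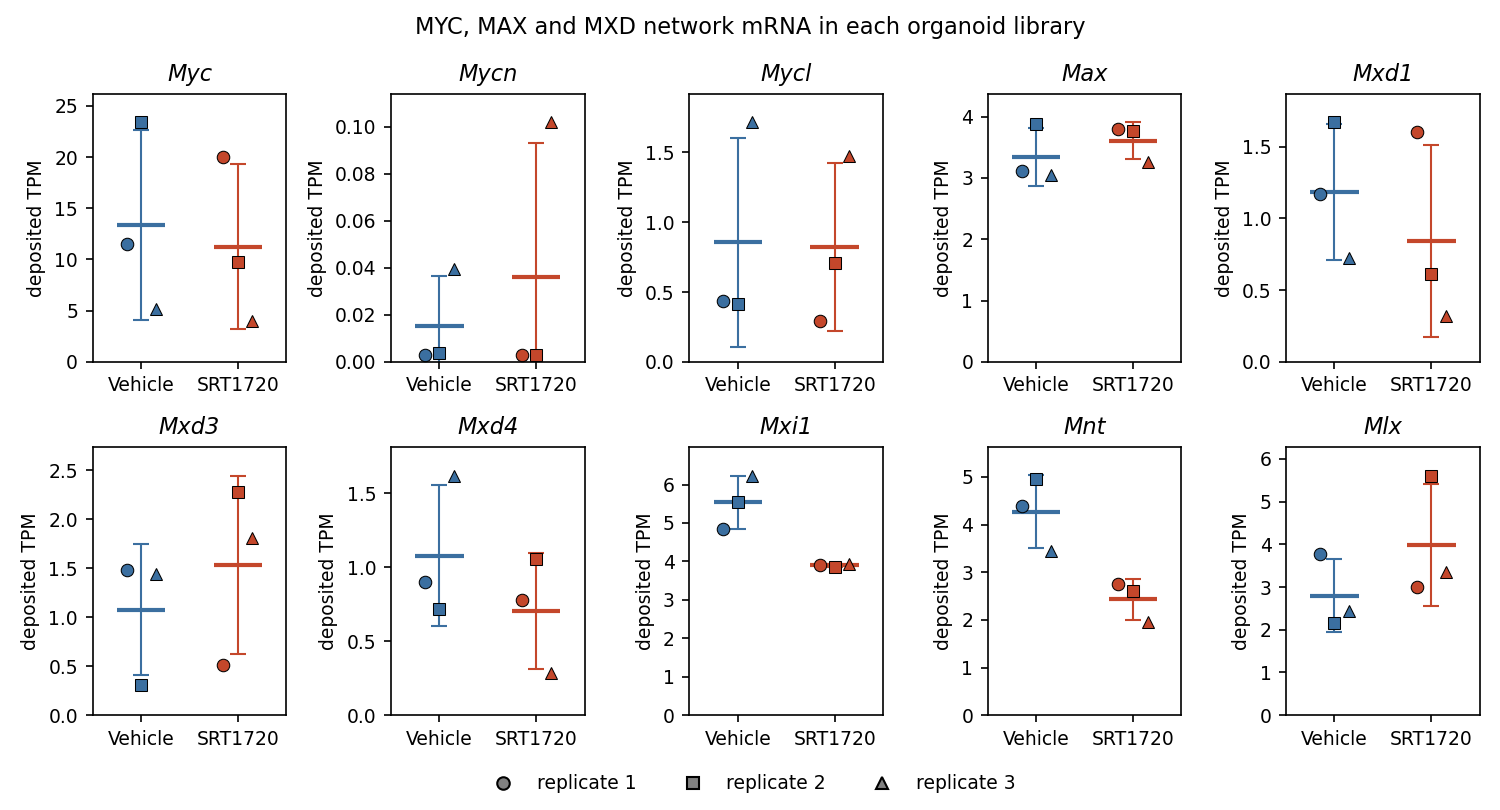
Deposited TPM (y axis, from 0) of each of the 10 network genes in the 3 Vehicle libraries (blue) and the 3 SRT1720 libraries (red). Symbols mark the replicate number, bars the group mean and whiskers the SD. Mxi1 and Mnt are the members whose groups do not overlap, with SRT1720 lower in both.

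Levels of different genes were compared as RPKM, here the recovered reads per kilobase of merged exon scaled to the library's recovered total. On this scale Myc had the highest level of the 10 genes, with a mean of 122 over the 6 libraries and a range of 40.0 to 232. Its lowest library exceeded the highest library of the next gene, Mlx, which ranged from 10.8 to 27.9. Mlx, Max, Mnt and Mxi1 followed with mean levels of 16.8, 15.7, 10.98 and 10.3, and the ranges of neighbours in this order overlapped. The Mxi1 level is a minimum, because its recovered length was shorter than its merged exons, so its place in this order is not settled. Mxd3, Mycl, Mxd1 and Mxd4 lay at means of 5.08, 3.22, 3.04 and 2.73, again with overlapping ranges. Mycn was lowest, at no more than 0.470 in any library, below the lowest library of each other member.

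Myc (ENSMUSG00000022346; GRCm38 chromosome 15, 61985391 to 61990374) encodes the main activator of the network. Its TPM in SRT1720 1, 2 and 3 was 19.96, 9.75 and 4.04, against 11.5, 23.4 and 5.19 in Vehicle 1, 2 and 3. Each group held a high, a middle and a low library, and the highest of each, SRT1720 1 and Vehicle 2, were the libraries with the lowest Krt5. The difference was −0.24 (log2, SE 0.65) with a 95% interval of −1.79 to 1.31 (limma adjusted p = 0.920). That interval is too wide to show either a change or its absence. The sign depended on single libraries, at 0.28 without SRT1720 3 and 0.25 without Vehicle 2, and it lay at −0.75 without SRT1720 1 and −0.74 without Vehicle 3. It was −0.26 without both SRT1720 1 and Vehicle 2, and −0.22 without both SRT1720 3 and Vehicle 3.

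Mycl and Mycn, paralogs better known from neuroendocrine and neural tumors, were low, and the order of Mycl within each group was the reverse of that of Myc. Mycl (ENSMUSG00000028654; chromosome 4, 122995652 to 123002485) was at 0.290, 0.710 and 1.48 TPM with SRT1720 and at 0.436, 0.414 and 1.72 TPM with vehicle. SRT1720 3 and Vehicle 3 were the highest of their groups in Mycl and the lowest in Myc. Mycn (ENSMUSG00000037169; chromosome 12, 12936093 to 12941914) had 33 reads in SRT1720 3 and 12 in Vehicle 3, with exact 95% Poisson intervals of 22.7 to 46.3 and 6.20 to 20.96. It had 1 read in each of the other 4 libraries, with an interval of 0.025 to 5.57, so nearly all of its reads lay in 1 library of each group. These intervals cover counting error only. Both genes stayed below the filter of a mean of 1 TPM and were not tested. Within a library, the TPM of Myc was 68.8, 13.7 and 2.73 times that of Mycl in SRT1720 1, 2 and 3, and 26.3, 56.5 and 3.02 times in Vehicle 1, 2 and 3. SRT1720 3 and Vehicle 3 also held the highest summed mitochondrial ribosomal RNA, at 702 and 1562 TPM against 135 to 198 TPM elsewhere, and its part in the Mycl and Mycn values was not tested.

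**Figure D2:**
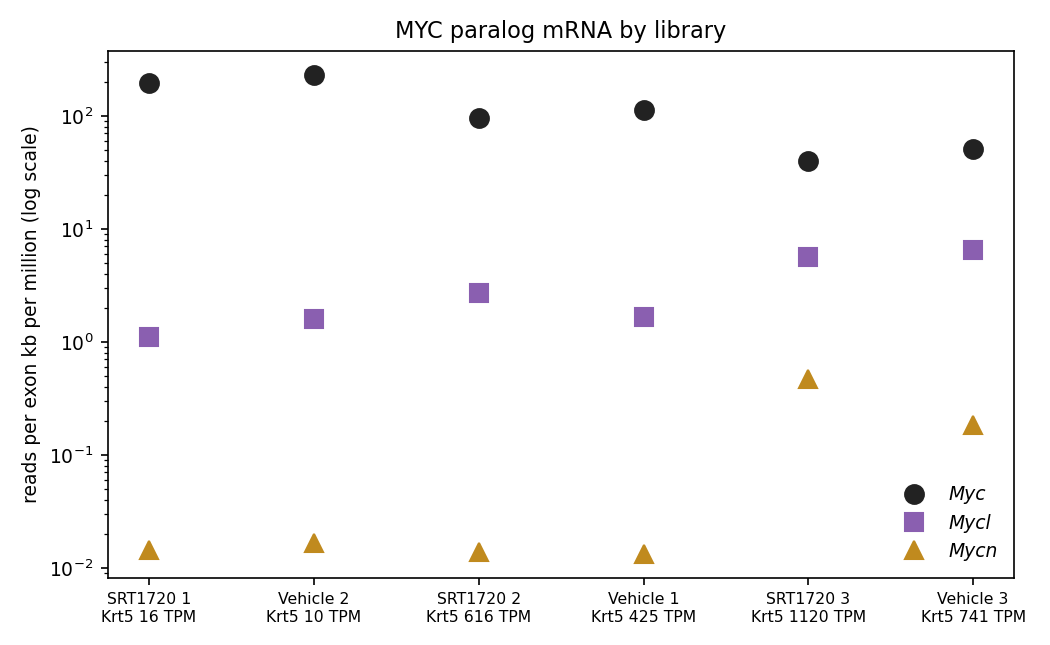
RPKM from recovered reads over merged exons (log axis) of Myc, Mycl and Mycn in each library, with the Krt5 TPM of the library under its name. Libraries are drawn in order of similar Krt5. Myc is highest in SRT1720 1 and Vehicle 2, and Mycl and Mycn are highest in SRT1720 3 and Vehicle 3.

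Max (ENSMUSG00000059436; chromosome 12, 76937269 to 76962201), the shared dimerization partner, was at 3.80, 3.76 and 3.26 TPM with SRT1720 and at 3.11, 3.88 and 3.04 TPM with vehicle. The libraries overlapped, and the difference was 0.09 (log2, SE 0.14) with a 95% interval of −0.26 to 0.43 (limma adjusted p = 0.864). The SD was 0.3002 TPM with SRT1720 and 0.469 TPM with vehicle.

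Mnt (ENSMUSG00000000282; chromosome 11, 74830920 to 74845725) encodes the MAX-binding repressor that is expressed in most dividing and resting cells and opposes MYC directly. It measured 2.75, 2.61 and 1.95 TPM with SRT1720, against 4.39, 4.96 and 3.45 TPM with vehicle. Every SRT1720 library was below every Vehicle library, and the group mean was 0.571 times that of vehicle. The log2 difference was −0.61 (SE 0.17, 95% interval −1.03 to −0.20, limma unadjusted p = 0.0103, adjusted p = 0.306), ranking 310 of 9287 genes by p. The exact permutation p was 0.1, the smallest that 3 libraries against 3 can give. These values rested on 630 to 1519 reads per library. The difference kept its sign under all 15 alternatives, between −0.81 and −0.51, with adjusted p of 0.107 to 0.834.

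Mxi1 (ENSMUSG00000025025; chromosome 19, 53310518 to 53375810) encodes a repressor of the same kind that also recruits SIN3. It was at 3.91, 3.85 and 3.94 TPM with SRT1720, 3 nearly equal values, and at 4.84, 5.55 and 6.23 TPM with vehicle. The SRT1720 mean was 0.7036 times that of vehicle, and the libraries did not overlap. The difference was −0.41 (log2, SE 0.14, 95% interval −0.75 to −0.07, limma unadjusted p = 0.0245, adjusted p = 0.355), with an exact permutation p of 0.1. Over the 15 alternatives it lay between −0.50 and −0.34, with adjusted p of 0.151 to 0.834. Of the 7 members that passed the filter, 2 did not overlap between groups and both were lower. Without overlap, 7.75% of all genes tested were lower and 12.1% higher. The same 2 were lower at an unadjusted p under 0.05, which held for 4.55% of all genes tested. For Mnt this held in 15 of 15 alternatives and for Mxi1 in 9 of 15. The unadjusted limma p of Mxi1 was 0.0555, 0.0786 and 0.0640 without SRT1720 1, 2 and 3 in turn, and 0.0735 without Vehicle 3.

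The other repressors overlapped between groups. Mxd1 (ENSMUSG00000001156; chromosome 6, 86647042 to 86669161), known to rise in differentiating epithelium, was at 1.60, 0.610 and 0.318 TPM with SRT1720 and 1.17, 1.67 and 0.722 TPM with vehicle. Its highest libraries were those with the highest Myc, and its difference was −0.28 (log2, SE 0.29, limma adjusted p = 0.750). It was −0.56 without SRT1720 1, −0.45 without Vehicle 3, −0.13 without Vehicle 2 and −0.07 without SRT1720 3. Mxd3 (ENSMUSG00000021485; chromosome 13, 55325168 to 55329823), the member of the family tied to proliferating cells, was at 0.513, 2.28 and 1.81 TPM against 1.48, 0.309 and 1.44 TPM. It was lowest in SRT1720 1 and Vehicle 2, the reverse of Mxd1, with a difference of 0.27 (log2, SE 0.37, limma adjusted p = 0.826) that turned to −0.03 without Vehicle 2. Mxd3 overlaps the opposite-strand gene Prelid1 by 105 bases, and since the counting is not stated to use strand, reads there cannot be told apart. Mxd4 (ENSMUSG00000037235; chromosome 5, 34173883 to 34187720) stayed below the filter, at 0.781, 1.054 and 0.283 TPM against 0.900, 0.716 and 1.62 TPM. Its lowest value was in SRT1720 3 and its highest in Vehicle 3.

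Mlx (ENSMUSG00000017801; chromosome 11, 101087277 to 101092207) was at 2.996, 5.61 and 3.35 TPM with SRT1720 and 3.77, 2.17 and 2.45 TPM with vehicle. The groups overlapped through Vehicle 1, and the difference was 0.38 (log2, SE 0.25, 95% interval −0.22 to 0.98, limma adjusted p = 0.587), and 0.16 without SRT1720 2. Mlx shares 385 bases with the opposite-strand gene Psmc3ip. Its partner Mlxip (MondoA), which drives glucose-responsive genes in the nucleus, was at 1.58, 1.71 and 1.43 TPM against 1.92, 2.24 and 1.84 TPM, lower in each SRT1720 library without overlap. That difference was small, at −0.22 (log2, SE 0.13, 95% interval −0.53 to 0.08, limma adjusted p = 0.525). Mga, a large MAX partner with repressive activity, was at 1.59, 1.56 and 1.49 TPM against 1.49, 2.28 and 1.79 TPM (log2 difference −0.15, SE 0.15, limma adjusted p = 0.726). Mlxipl (ChREBP), best known from liver, had 5 to 73 reads per library and was not tested.

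**Figure D3:**
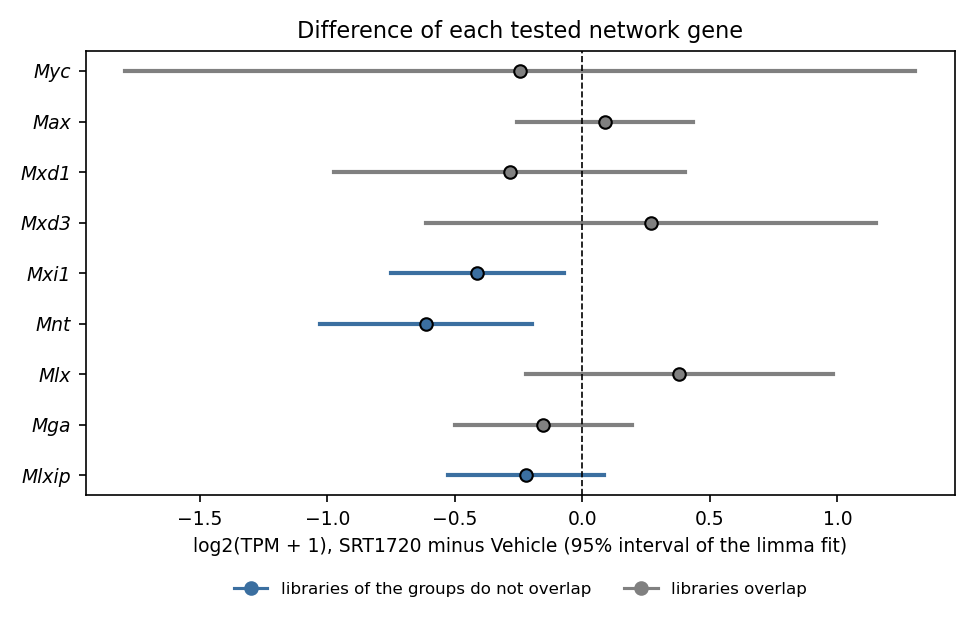
Difference in log2(TPM + 1), SRT1720 minus Vehicle (x axis), for the 7 network members and 2 further partners that passed the filter, with the 95% interval of the limma fit. Mxi1, Mnt and Mlxip, in blue, are those whose groups do not overlap, and the intervals of Mnt (−1.03 to −0.20) and Mxi1 (−0.75 to −0.07) lie below 0 before adjustment for the number of genes.

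Ratios of members within a library do not depend on how libraries were scaled. The TPM of Mnt relative to Max was 0.726, 0.693 and 0.597 in SRT1720 1, 2 and 3 and 1.41, 1.28 and 1.13 in Vehicle 1, 2 and 3, with no overlap. Mxi1 relative to Max was 1.03, 1.02 and 1.21 against 1.56, 1.43 and 2.05, also without overlap. Myc relative to Max overlapped, at 5.26, 2.59 and 1.24 against 3.69, 6.02 and 1.70. Myc relative to Mnt, at 7.25, 3.74 and 2.08 against 2.61, 4.72 and 1.503, overlapped as well. The size of each ratio depends on the authors' gene lengths. The ratios were chosen after the members' values were seen and are given with no test.

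**Figure D4:**
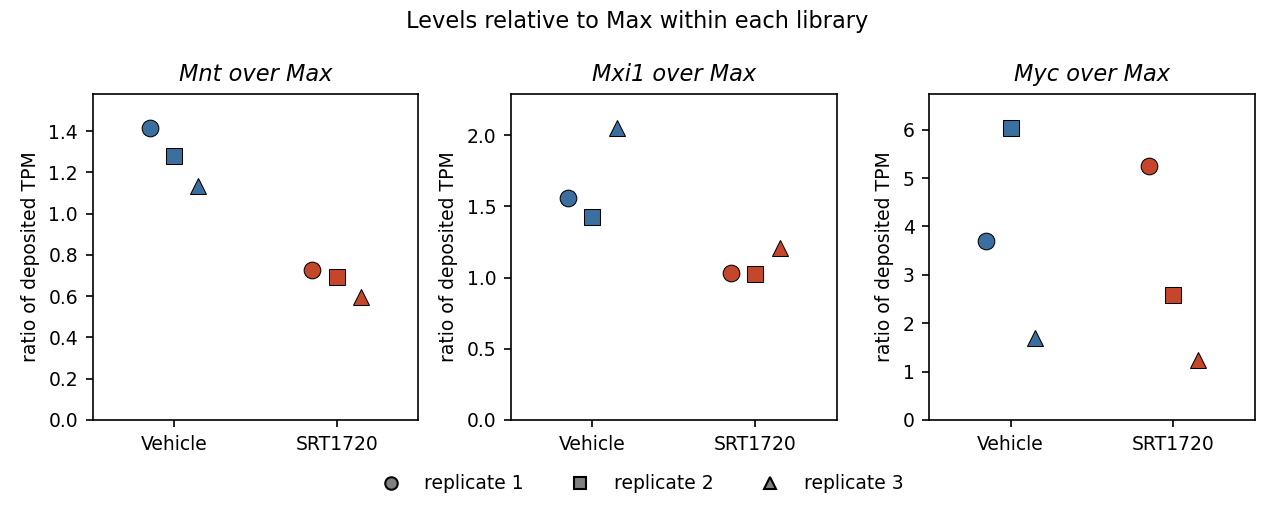
Ratio of the deposited TPM of Mnt, Mxi1 and Myc to that of Max within each library (y axes, from 0), for Vehicle (blue) and SRT1720 (red). The ratios of Mnt and Mxi1 to Max separate the groups, at 0.597 to 0.726 against 1.13 to 1.41 for Mnt, and that of Myc does not.

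The promoter windows of these genes were searched for the E-box, since MAX dimers bind it and Mnt and Mxi1 were lower together. RefSeq windows on GRCm38.p6, from 250 bases before to 50 after the start, were found for 9 of the 10 members, without Myc. The 6 letters CACGTG, which read the same on both strands, occurred in 4 of the 9, Mnt, Max, Mlx and Mxd4, and in 7.15% of 32851 windows (8.09% of 27025 genes). None of the 3 Mxi1 windows held it. The shorter core ACGTG of the hypoxia response element was searched on both strands. It was found in 5 of the 9 members, against 21.8% of genes (19.6% of windows). This core lies inside the E-box, so the 4 members with an E-box hold it by definition, and Mxi1 was the only other member. A match is a string of letters, not a bound site. The stretches around the 4 E-boxes are shown to place these letters, with the E-box in capitals and each sequence 5′ to 3′ on the strand of the gene.
Mnt (chr11:74830784-74830823, plus strand): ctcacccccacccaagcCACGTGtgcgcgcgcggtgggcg
Mlx (chr11:101087233-101087272, plus strand): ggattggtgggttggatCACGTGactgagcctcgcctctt
Mxd4 (chr5:34187907-34187946, minus strand): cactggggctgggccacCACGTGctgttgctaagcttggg
Max (chr12:76962234-76962263, minus strand): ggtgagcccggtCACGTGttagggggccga

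Counted from the transcript start, the first base of the E-box lay at −3 in Max, −40 in Mlx, −123 in Mnt and −219 in Mxd4. Of these 4 genes, Mnt was lower with SRT1720 without overlap, Mlx and Max overlapped between groups, and Mxd4 was below the filter. The full upstream stretches of the 2 non-overlapping members are shown for comparison, 246 bases for Mnt, with its E-box in capitals, and 250 for the most upstream start of Mxi1. The ACGTG matches of Mxi1 lay in the windows of its other starts, and the Mxi1 stretch shown holds neither motif.
Mnt (chr11:74830674-74830919, plus strand): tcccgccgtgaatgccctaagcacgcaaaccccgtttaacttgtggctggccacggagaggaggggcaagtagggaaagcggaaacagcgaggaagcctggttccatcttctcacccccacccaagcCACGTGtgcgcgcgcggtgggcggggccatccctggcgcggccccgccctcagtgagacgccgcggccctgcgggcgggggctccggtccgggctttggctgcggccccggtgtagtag
Mxi1 (chr19:53310256-53310505, plus strand): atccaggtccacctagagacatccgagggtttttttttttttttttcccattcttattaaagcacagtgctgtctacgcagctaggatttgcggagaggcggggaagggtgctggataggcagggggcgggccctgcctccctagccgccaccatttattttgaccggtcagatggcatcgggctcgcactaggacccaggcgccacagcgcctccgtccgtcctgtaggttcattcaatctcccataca
Their base composition differed, with 69.5% G and C in the Mnt stretch and 55.2% in that of Mxi1.

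The genes closest in pattern to Myc and to Mxi1 were taken by the root mean square difference in log2(TPM + 1) over the 6 libraries, after centring each gene. For Myc, whose own SD over the libraries was 0.91 (log2), they were Krtcap2, Gm5900, Enpp2, Gm7901 and Phgdh, at distances of 0.14 to 0.18. Krtcap2 encodes a subunit of the oligosaccharyltransferase, Enpp2 the secreted enzyme autotaxin, and Phgdh the entry enzyme of serine synthesis. Phgdh was at 62.6, 32.7 and 15.3 TPM with SRT1720 and 45.0, 65.9 and 14.4 TPM with vehicle. Its order of libraries within each group was that of Myc, which follows largely from its being picked for closeness to Myc. For Mxi1, with an SD of 0.25, they were Rhebl1, a small GTPase gene, Rpl31-ps8, Rpl32, a ribosomal protein gene, Mapk1ip1 and Rps19-ps6, at distances of 0.03 to 0.06. Rpl32 was at 135, 140 and 137 TPM with SRT1720 and 172, 173 and 204 TPM with vehicle. Gm5900, Gm7901, Rpl31-ps8 and Rps19-ps6 are annotated as processed pseudogenes, whose reads may come from near-identical copies, as may those of Rpl32.

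Genes that act on MYC proteins or work with them were described by lists. In the list of 11 genes of MYC protein turnover, 10 passed the filter, of which 6 lay above 0 and 4 below, with a median log2 difference of 0.08 against 0.04 for all genes tested. None passed the adjusted limma test, and 3 were higher without overlap, where 12.1% of all genes tested were. Cip2a, which shields MYC from a phosphatase, was at 4.97 ± 0.854 against 2.88 ± 0.947 TPM (mean ± SD, n = 3 each). Skp2, a ubiquitin ligase subunit, was at 1.86 ± 0.250 against 1.28 ± 0.321 TPM, and both were without overlap. Gsk3b, the kinase that marks MYC for destruction, overlapped at 5.16 ± 1.03 against 7.02 ± 2.27 TPM. The list's median was −0.03 without Vehicle 3 and 0.20 without SRT1720 3.

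The 15 cofactor genes all passed the filter, and 10 lay above 0, where 54.8% of all genes tested did, with a median of 0.11 (log2) and 0 past the adjusted limma test. The median was 0.05 without Vehicle 3 and 0.17 without Vehicle 1. Hdac1, a deacetylase of the SIN3 complex through which MXI1 and MNT repress, was at 7.59 ± 1.53 against 5.11 ± 1.67 TPM. Ruvbl1 and Ruvbl2, ATPases found in MYC coactivator complexes, were at 11.5 ± 1.82 against 7.84 ± 2.38 TPM and 14.0 ± 0.924 against 11.5 ± 1.34 TPM, the latter without overlap. Smarcb1, a chromatin remodelling subunit that binds MYC, was at 2.24 ± 0.446 against 1.55 ± 0.379 TPM.

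The genes that MYC is known to activate mostly lay above 0. Of 26 nucleolar targets, genes of ribosome production, 25 passed the filter and 25 lay above 0, with a median log2 difference of 0.50 and a range of 0.08 to 1.03, where 54.8% of all genes tested lay above 0. In this list 13 genes were higher without overlap, where 12.1% of all genes tested were. At an unadjusted limma p under 0.05, 10 were higher, which held for 7.86% of all genes tested. The adjusted limma test was passed by 0 (smallest adjusted p = 0.166). Rrp12, a ribosome export factor, was at 5.73 ± 0.649 against 2.44 ± 0.429 TPM and Bop1, a factor of large subunit maturation, at 15.3 ± 4.09 against 7.01 ± 2.24 TPM. Ncl and Nolc1, abundant nucleolar proteins, were at 41.1 ± 1.97 against 27.7 ± 2.85 TPM and 28.1 ± 3.43 against 17.8 ± 3.499 TPM. Wdr74 was listed at 0 in every library. The list overlaps one examined in these data before, so its direction is not independent evidence, and its median was 0.32 without Vehicle 3. The growth and repressed lists below were also chosen with earlier results of these data known, so their directions are not independent evidence either.

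Of 46 growth and metabolic targets, 44 passed the filter, with 35 above 0, 9 below and a median log2 difference of 0.31, where 54.8% of all genes tested lay above 0. There were 12 higher and 1 lower without overlap, against 12.1% and 7.75% of all genes tested, and 0 passed the adjusted limma test (smallest adjusted p = 0.290). Phb, a prohibitin, was at 12.9 ± 1.90 against 7.08 ± 1.36 TPM and Shmt1, of folate metabolism, at 4.27 ± 0.565 against 2.73 ± 0.333 TPM. Gart, of purine synthesis, was at 7.71 ± 1.44 against 4.85 ± 0.348 TPM, Prmt5, an arginine methyltransferase, at 6.69 ± 0.978 against 4.31 ± 0.749 TPM, and Cdk4, a kinase of G1 phase, at 16.4 ± 1.65 against 11.9 ± 1.91 TPM, all without overlap. The 1 lower gene, Ctps, of CTP synthesis, was named after its values were seen and was at 12.4, 15.04 and 13.98 TPM against 21.8, 15.14 and 22.02 TPM. The classical targets Odc1, the entry enzyme of polyamine synthesis, and Ldha overlapped, at 46.7 ± 16.7 against 27.4 ± 10.2 TPM and 91.2 ± 32.2 against 45.7 ± 17.6 TPM. So did Cad, of pyrimidine synthesis, at 6.15 ± 1.09 against 4.57 ± 1.33 TPM, and Nme1, at 2.87 ± 0.529 against 1.51 ± 0.862 TPM. The median was 0.19 without Vehicle 3 and 0.20 without Vehicle 2.

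Genes described as repressed by MYC lay mostly below 0. Of 13 in the list, 11 passed the filter, 9 below 0 and 2 above, with a median log2 difference of −0.49. The median of all 9287 genes tested was 0.04, and 4194 of them lay below 0. The 4 with an unadjusted p under 0.05 were also the 4 without overlap, all lower, where 4.55% and 7.75% of all genes tested were, and 0 passed the adjusted limma test (smallest adjusted p = 0.155). Ypel3 was at 1.14, 0.651 and 0.823 TPM with SRT1720 and 2.48, 4.14 and 3.53 TPM with vehicle, a log2 difference of −1.22 (SE 0.19). Cdkn1b, the inhibitor p27 of cyclin-dependent kinases, was at 5.02, 4.95 and 4.23 TPM against 7.89, 6.76 and 8.29 TPM (log2 difference −0.59, SE 0.15). Ccng2, a cyclin of resting cells, was at 1.49 ± 0.353 against 3.01 ± 0.639 TPM, and Hbp1, a repressor linked to cell cycle exit, at 0.801 ± 0.0354 against 1.67 ± 0.386 TPM. Cdkn1a (p21) followed the library instead, at 20.2, 3.54 and 4.51 TPM against 5.22, 20.4 and 2.70 TPM, highest in SRT1720 1 and Vehicle 2 as Myc was. Ndrg1 overlapped too, at 4.56 ± 3.29 against 5.60 ± 3.63 TPM.

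The targets of MLX and its partners showed no common direction. Of 6 genes 5 passed the filter, 2 above and 3 below 0, with a median log2 difference of −0.40. With 1 library left out the median ranged from −0.75 (without SRT1720 1) to −0.11 (without Vehicle 2), and it was 0.03 without both SRT1720 3 and Vehicle 3. Txnip, an inhibitor of glucose uptake and the best known MLXIP target, was at 13.0, 6.92 and 2.43 TPM with SRT1720 and 11.8, 15.2 and 7.10 TPM with vehicle. Arrdc4, its relative, was at 5.61, 2.22 and 2.15 TPM against 3.88, 3.15 and 6.58 TPM, and Klf10 at 13.3 ± 3.48 against 9.66 ± 4.01 TPM. Fgf21 was at 5.74, 0.131 and 0.0955 TPM against 1.39, 14.6 and 0.286 TPM, high in the libraries where Myc was high. Tkfc is the remaining gene tested, and Pklr was listed at 0 in every library.

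**Figure D5:**
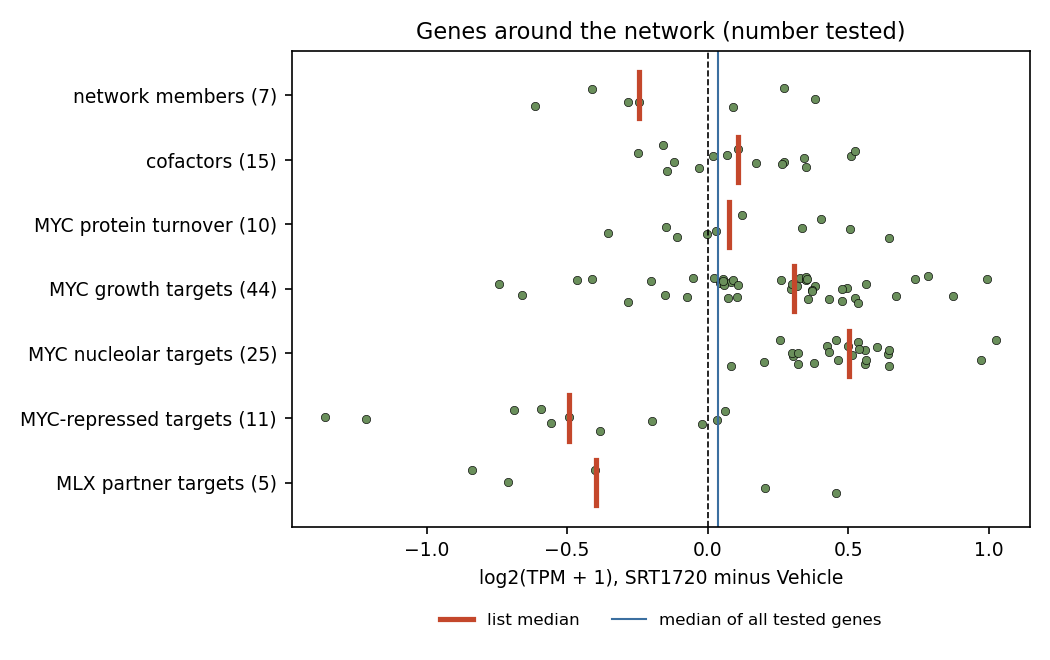
Difference in log2(TPM + 1), SRT1720 minus Vehicle (x axis), of each tested gene in the network and in the lists around it, with the number tested in brackets. Red bars are list medians and the blue line is the median of all genes tested (0.04). Of the nucleolar targets, 25 of 25 lay above 0, where 54.8% of all genes tested did. Of the genes described as repressed by MYC, 9 of 11 lay below 0, where 4194 of all 9287 genes tested did. These lists were chosen with earlier results of these data known, so their directions are not independent evidence.

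The leukocyte marker list moved with the groups, at 1.045 to 1.38 TPM in sum with SRT1720 and 2.05 to 3.13 TPM with vehicle. Cd68, the 1 of 11 genes at a mean of 1 TPM and also a lysosomal protein gene, was at 1.31, 0.730 and 1.03 TPM with SRT1720 and 1.45, 1.92 and 3.09 TPM with vehicle. The other 10 summed to 0.0131 to 0.538 TPM with SRT1720 and 0.0330 to 0.599 TPM with vehicle, overlapping, and Ptprc, which defines leukocytes, was at no more than 0.0129 TPM in any library.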

How the data were processed

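RNA was sequenced in 6 libraries, grouped by sample title. The authors deposited 1 table of TPM values, a unit taken from that table's title. The submitters' processing notes list STAR 2.6.0 and GRCm38 without their roles. For the counter, gene lengths and annotation release, the sources used here give nothing. The columns summed to 161231 to 171577, not to the sum TPM has by definition. Names and positions came from GENCODE M21. Reads were recovered from the steps of the values, taking the smallest whole length at which all values of a gene were whole within 0.01 reads, which can understate reads; 27711 of 27713 IDs above 0 had one. The main test was limma 3.58.1 in R 4.3.3 with a mean trend, fitted to log2(TPM + 1) of 9287 genes averaging 1 TPM or more, adjusted by Benjamini-Hochberg at 0.05; exact permutation tests were two-sided. Scripts were tested on simulated data. Libraries of a group differed beyond sampling noise (median chi-square 14.8 to 32.5).

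The members and gene lists were chosen with earlier results of these data known, and the lists were written from general knowledge. Genes named are all members and partners, the 4 smallest p in each list and 10 preset targets, and the 5 genes nearest in pattern to Myc and Mxi1; 1 gene that this rule names is not reported here. The neighbours and within-library ratios were chosen later. Alternatives covered the pseudocount, filters, scalings, library weights, voom on recovered reads, a replicate block and left-out libraries. Python 3.11.15, pandas 2.3.3, numpy 2.4.6, scipy 1.17.1 and matplotlib 3.10.9 were used.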

Additional observations from a re-analysis of the deposited data

How the results depend on the processing

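The count of genes past the adjusted limma test was 0 in the 16 alternatives. The count at an unadjusted p under 0.05 was 1153, and 2028 with no filter on low values, 498 at a mean of at least 5 TPM, 2056 with library weights and 682 without both SRT1720 3 and Vehicle 3. Leaving out 1 library gave 523 (without SRT1720 2) to 1054.

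Mnt, Mxi1, Max, Mxd1 and Mlx kept their direction in all 15 of their alternatives. With 1 library left out, the log2 difference of Myc ranged from −0.75 to 0.28, that of Mxd3 from −0.033 to 0.605, Mxd1 from −0.56 to −0.07, Mlx from 0.16 to 0.56 and Max from 0.039 to 0.175. The Myc difference was 0.25 without Vehicle 2. The list medians ranged from −0.027 to 0.199 for MYC turnover, 0.19 to 0.35 for growth targets, 0.32 to 0.55 for nucleolar targets and −0.63 to −0.44 for repressed genes. The nucleolar median was 0.36 without both SRT1720 3 and Vehicle 3, and the median of repressed genes −0.68 with a pseudocount of 0.1 and −0.69 with voom. The cause was not tested. In all, 279 of 297 alternative values were kept. Values of genes and lists were kept by direction and call, or by moving less than the spread between replicates. Counts of genes were kept if equal to the main count or within a set fold of it. The count at an unadjusted p under 0.05 was kept so in 11 of 16 alternatives. Because 0 genes passed the adjusted limma test in any alternative, a tested gene counted here by its sign alone. The tally therefore does not measure size: Myc at −0.75 without SRT1720 1 is among the values kept.

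The replicate numbers did not pair the samples: same-numbered libraries deviated together with correlations of −0.20, −0.26 and 0.79 for numbers 1, 2 and 3. SRT1720 1 correlated best with Vehicle 2 (0.72) and SRT1720 2 with Vehicle 1 (0.68), a match seen in the values and not given by the labels. With the replicate block, 1133 genes had an unadjusted p under 0.05 and 0 passed, with no call changed. Arms left with 2 libraries pooled the spread of both groups. Mycn and Mlxipl are limited by depth.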

Other observations

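Levels of the members relative to each other depended on the gene lengths behind the deposited values. Of 12365 genes with at least 300 recovered reads over the 6 libraries, 75.3% had a recovered length more than 1% above the length of their merged exons, with a median of 1.40 times. For 32.0% it was within 1% of the summed length of all distinct annotated exons, in which overlapping exons of different transcripts count again. The recovered length was 3.83 times the merged exons for Myc, 1.92 for Mlx, 1.75 for Max, 1.27 for Mnt and 0.84 for Mxi1. The deposited TPM of Myc was 12.3 on average and that of Mxi1 4.72, while their RPKM over merged exons was 122 and at least 10.3. A gene's length is the same in every library and cancels in its comparison between groups, apart from the pseudocount and the filter.

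Genes next to Mnt, Mxi1 and Myc were examined by position, as the 2 nearest tested genes on each side, chosen after the members' values were seen. Beside Mnt, Mettl16 (2.4 kb away) had a log2 difference of 0.29 and Pafah1b1 0.02. On its other side Sgsm2 (3.5 kb away) had −0.61, at 0.458, 0.570 and 0.984 TPM with SRT1720 and 1.122, 1.48 and 2.05 TPM with vehicle, without overlap, and Tsr1 had 0.41. Beside Mxi1, Add3 had 0.07 and Xpnpep1 0.33, the latter without overlap at 3.41, 3.97 and 4.08 TPM against 3.15, 2.54 and 2.83 TPM, and Smndc1 (3.6 kb away) and Dusp5 had −0.17 and −0.40. The nearest tested gene to Myc was 990.3 kb away. Fam84b and Trib1, before Myc, were at 7.76, 2.88 and 2.91 and at 4.11, 2.61 and 1.67 TPM with SRT1720, and at 3.30, 6.21 and 3.16 and at 1.75, 3.84 and 2.07 TPM with vehicle, highest in SRT1720 1 and Vehicle 2, where Myc was highest too. After Myc, Fam49b was lowest of each group in those libraries, at 6.26, 7.87 and 9.57 TPM against 10.4, 4.84 and 9.02 TPM. Tsg101-ps, a processed pseudogene and the nearest, was higher with SRT1720 without overlap, at 6.58, 6.70 and 5.32 TPM against 4.80, 3.84 and 4.90 TPM. None of these neighbours passed the adjusted limma test.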
